A study of Mus musculus with 23 samples.

Results

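Gfi1 and Gfi1b are a pair of zinc finger repressors of blood cell formation, and captured methylated DNA was followed here at the start of each gene in mouse spleen and heart. They make up 2 of the 41388 gene start windows counted in the 2 tissues. Gfi1 was chosen by its counts in these libraries, as the window with the largest excess of captured DNA in spleen over heart, and Gfi1b, its closest relative, was taken with it by symbol. Each symbol matched 1 window in both tissues, and both windows passed the filter on low counts in every fit. The tissue difference at Gfi1 is therefore a description of how it was chosen and carries no test.

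Genomic DNA came from male C57Bl/6 mice, and fragments carrying methylated CpG sites were enriched with MethylMiner, a kit built on a methyl-CpG binding protein, and sequenced. Spleen gave 4 libraries on a high fibre diet (rich in resistant starch), 4 on acetate (100 mM magnesium acetate in the drinking water) and 4 on a control diet without resistant starch; the left ventricle of the heart gave 4, 3 and 4 libraries of the same diets in the same order. Every mouse was housed alone and was on its diet for 3 weeks before minipump surgery and until the study ended; what the pumps delivered is not given in the sources used here. The labels name a replicate but not a separate mouse for each library, so p-values measure the spread between libraries. Total counts were 4.36 to 9.87 M reads in spleen and 4.12 to 8.60 M reads in heart. The window of Gm10800, a predicted gene, alone took 48.2% to 61.2% of reads in spleen and 17.3% to 50.0% in heart. Its share averaged 19.05% ± 1.70 in high fibre heart, 33.8% ± 10.5 in acetate heart and 42.3% ± 5.80 in control heart (SD, n = 4, 3 and 4). Levels are therefore given as normalised read counts (CPM, counts scaled to a common library size with TMM, which evens out the bulk of windows), and changes are relative to that bulk. No unenriched input library was used, so a level compares libraries and is no methylation percentage, and in bulk tissue the share of cells that carry a methylated site and the methylation per cell cannot be told apart.

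Both proteins bind DNA through zinc fingers that read a core of AATC, and both carry a short amino-terminal SNAG domain that docks the histone demethylase LSD1 (Kdm1a) and its CoREST partners, which silence the bound gene. Gfi1 acts in blood stem cells, lymphocytes and developing granulocytes, and Gfi1b in red cell and platelet precursors; each can repress its own gene and the other. In the adult mouse the spleen holds lymphocytes, myeloid cells and red cell precursors. Methylated CpG sites near a gene start are often, though not always, found where the gene is silent.

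The promoter sequences are shown because the capture reads methylated CpG sites, and the 2 genes differ in how many such sites their starts offer. RefSeq (GRCm38.p6) lists 2 start sites for Gfi1 and 1 for Gfi1b, all on the minus strand, and each sequence runs 5′ to 3′ from 250 bases before the start to 50 after it, with CG dinucleotides in capitals.
Gfi1 start 1, chr5:107725756-107726055: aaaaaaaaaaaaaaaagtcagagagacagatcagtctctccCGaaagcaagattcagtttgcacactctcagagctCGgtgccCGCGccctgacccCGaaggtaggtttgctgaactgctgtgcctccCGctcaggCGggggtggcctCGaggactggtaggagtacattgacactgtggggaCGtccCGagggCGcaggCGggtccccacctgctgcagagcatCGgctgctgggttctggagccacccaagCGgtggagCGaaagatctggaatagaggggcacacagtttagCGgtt
Gfi1 start 2, chr5:107724294-107724593: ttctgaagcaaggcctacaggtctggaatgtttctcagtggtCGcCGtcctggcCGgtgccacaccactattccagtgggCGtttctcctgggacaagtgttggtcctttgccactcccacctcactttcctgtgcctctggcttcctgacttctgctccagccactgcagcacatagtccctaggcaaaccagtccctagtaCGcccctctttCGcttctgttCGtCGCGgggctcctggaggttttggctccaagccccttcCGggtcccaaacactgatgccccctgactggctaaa
Gfi1b, chr2:28621933-28622232: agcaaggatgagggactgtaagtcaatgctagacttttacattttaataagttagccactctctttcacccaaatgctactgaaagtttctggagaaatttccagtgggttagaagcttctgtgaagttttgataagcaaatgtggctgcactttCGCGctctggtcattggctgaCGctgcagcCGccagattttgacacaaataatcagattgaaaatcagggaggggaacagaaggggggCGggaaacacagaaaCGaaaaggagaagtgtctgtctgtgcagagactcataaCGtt

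Start 1 of Gfi1 holds 16 CG dinucleotides in 300 bases, more than 67.0% of the 32851 mouse promoters of this length, and start 2 holds 10, more than 56.5% of them. The Gfi1b promoter holds 7, which equals the median. Its GC content was 44.3%, against 58.0% at both Gfi1 starts. The motif AATC, counted on both strands, occurs 4 times at Gfi1b, a number that 10.1% of promoters reach, and 1 time at Gfi1 start 1, whereas 73.1% of promoters hold at least 1. Start 2 of Gfi1 has none. The longer form AAATCA, which contains AATC and was also counted on both strands, occurs 1 time at Gfi1b and in 14.0% of promoters. Both Gfi1 starts lie 1462 bases apart. The way the 3 kb windows are centred is not given in the sources used here, so whether the Gfi1 window covers both starts is not known.

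In the RefSeq table Gfi1 (ENSMUSG00000029275) spans GRCm38 chromosome 5, 107716655 to 107725805, and Gfi1b (ENSMUSG00000026815) spans chromosome 2, 28609450 to 28621982. The start of Gfi1b is overlapped there by Gm52548, a long non-coding RNA gene at 28619670 to 28622203 that has no window of its own. Captured DNA carries no strand, so reads over the shared stretch cannot be assigned to one gene or the other.

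At the Gfi1 window, spleen held abundant captured DNA and heart almost none. The 4 high fibre spleen libraries, replicates 1 to 4, had 447, 236, 183 and 265 reads, the acetate spleen libraries 296, 185, 146 and 498, and the control spleen libraries 364, 261, 360 and 257. Heart libraries had 16, 10, 6 and 20 reads on high fibre, 6, 17 and 11 on acetate and 8, 9, 10 and 8 on control. No heart library therefore came near the spleen libraries, and 3498 reads in 12 spleen libraries stand beside 121 in 11 heart libraries. Counting error is wide at the heart level: 6 reads have an exact 95% Poisson interval of 2.20 to 13.1 and 20 reads one of 12.2 to 30.9, covering counting error only. Each heart count lay above 3 reads, the limit that a count of 0 allows.

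Scaled over both tissues, Gfi1 had 82.5, 53.9, 45.4 and 51.1 CPM in high fibre spleen, against 1.92, 1.19, 0.564 and 1.89 CPM in high fibre heart. On acetate it had 58.4, 50.6, 39.4 and 85.9 CPM in spleen and 1.18, 2.03 and 1.12 CPM in heart. On the control diet it had 84.8, 36.7, 58.7 and 55.3 CPM in spleen and 0.806, 0.984, 1.47 and 1.01 CPM in heart. Spleen and heart did not overlap on any diet. Of 33982 windows tested over both tissues, 18.2% had every spleen library above every heart library and 14.4% had every spleen library below, so the separation alone is common, and the size of the gap is what chose Gfi1. The mean over all libraries was 58.6 ± 17.01 CPM in spleen and 1.29 ± 0.48 CPM in heart (SD, n = 12 and 11). The ratio of group means was 41.9 on high fibre, 40.6 on acetate and 55.1 on the control diet, or 5.39, 5.34 and 5.78 on the log2 scale.

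Placed among the other windows of the same library, Gfi1 had more reads than 90.4% to 96.6% of windows in spleen (median 94.9%) and more than 16.7% to 28.9% in heart (median 22.2%). This ranking uses no scaling factor. The size of the ratio did depend on the scale. Library totals, which count the Gm10800 reads, gave log2 ratios of 3.78 on high fibre, 4.40 on acetate and 4.85 on control, and CPM outside Gm10800, which divides by the reads of all other windows and was added after the data were seen, gave 4.65, 4.84 and 5.23. Without the highest spleen library of each diet the TMM-scaled values were 5.17 on high fibre, 5.10 on acetate and 5.55 on control.

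Gfi1b, in contrast, carried captured DNA in both tissues at levels that were close to each other. High fibre spleen libraries had 219, 147, 141 and 191 reads, acetate spleen libraries 193, 122, 132 and 224, and control spleen libraries 199, 221, 232 and 166. Heart libraries had 173, 181, 213 and 187 reads on high fibre, 137, 191 and 211 on acetate and 240, 208, 165 and 184 on control. Read numbers of spleen and heart thus covered the same range. After scaling over both tissues, Gfi1b had 40.4, 33.6, 35.0 and 36.8 CPM in high fibre spleen, against 20.7, 21.6, 20.03 and 17.7 CPM in high fibre heart. It had 38.1, 33.4, 35.6 and 38.7 CPM in acetate spleen and 26.9, 22.8 and 21.4 CPM in acetate heart. It had 46.4, 31.1, 37.8 and 35.7 CPM in control spleen and 24.2, 22.8, 24.3 and 23.2 CPM in control heart. On this scale every spleen library lay above every heart library, as it did for 18.2% of all windows tested.

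The direction at Gfi1b rested on the scale. The mean was 36.9 ± 3.95 CPM in spleen and 22.3 ± 2.45 CPM in heart (SD, n = 12 and 11), with log2 ratios of 0.87 on high fibre, 0.62 on acetate and 0.68 on control. With library totals the ratios turned to -0.73, -0.30 and -0.25. As CPM outside Gm10800, spleen had 55.3 ± 2.96 and heart 49.8 ± 2.33, log2 ratios of 0.14, 0.16 and 0.14. Its rank was as near: it had more reads than 87.9% to 90.5% of windows in spleen and than 87.4% to 90.1% in heart. No direction between the tissues is therefore given for Gfi1b.

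**Figure D1:**
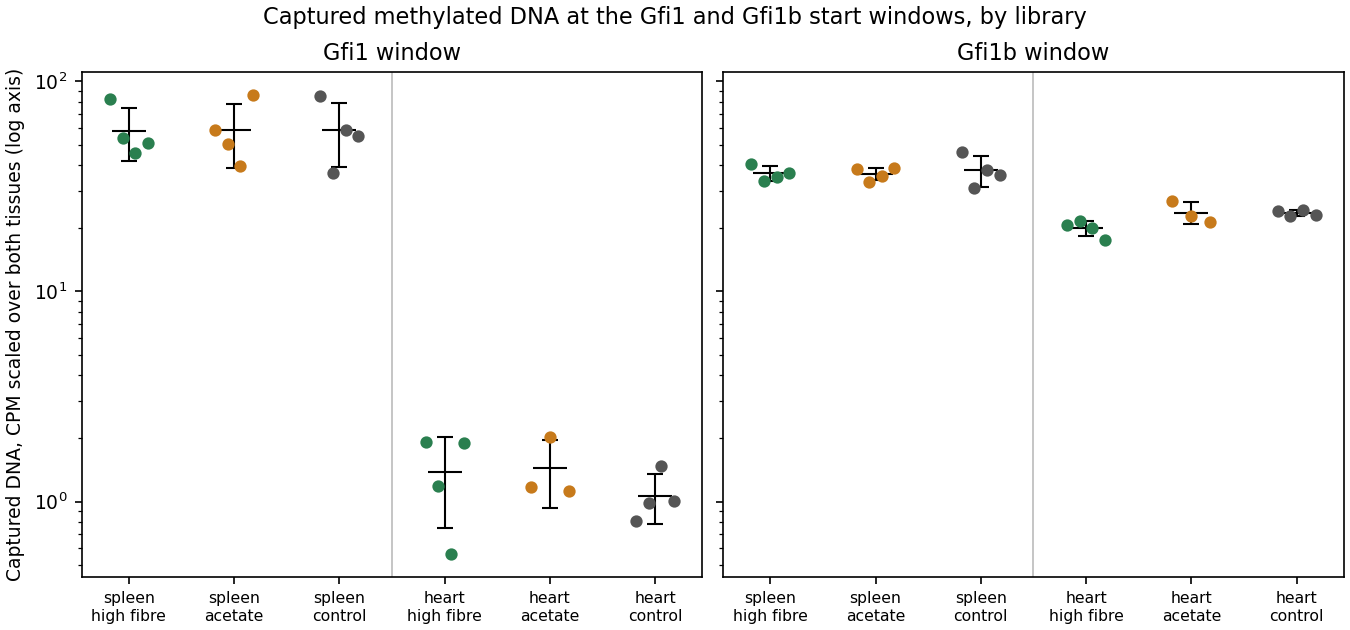
Captured DNA at the Gfi1 window (left) and the Gfi1b window (right) in each library, in CPM scaled over both tissues on a log axis, with spleen left of heart and the diets in colour; points are libraries, bars the mean and SD of a group. Gfi1 spans 36.7 to 85.9 CPM in spleen and 0.564 to 2.03 CPM in heart, whereas Gfi1b lies between 17.7 and 46.4 CPM throughout.

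Among windows tested over both tissues, the spleen minus heart log2 fold change on the control diet was 5.46 for Gfi1, rank 1 of 33982, and 0.66 for Gfi1b, rank 7752. Just below Gfi1, among windows above the median abundance and with predicted genes skipped, stood Hoxa5, a Hox patterning factor, at 5.05 with 67.4 ± 12.2 CPM in spleen and 2.05 ± 0.65 CPM in heart. Agap2, a regulator of Arf GTPases, followed at 4.59 with 142.7 ± 46.3 CPM in spleen and 4.97 ± 1.07 CPM in heart. The CPM levels of Hoxa5 and Agap2, unlike the fold changes, are over all diets (SD, n = 12 and 11). The next were Tenc1, a tensin of cell adhesions (3.996), Hoxaas2, an antisense gene of the Hoxa cluster (3.39), and the homeobox gene Gbx2 (3.29). Gfi1 thus headed a short run of windows that stood off from the bulk, and Gfi1b lay inside the bulk. All windows together had a median of -0.19 on this scale, and edgeR called 72.7% of them, 32.7% higher and 40% lower in spleen.

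**Figure D2:**
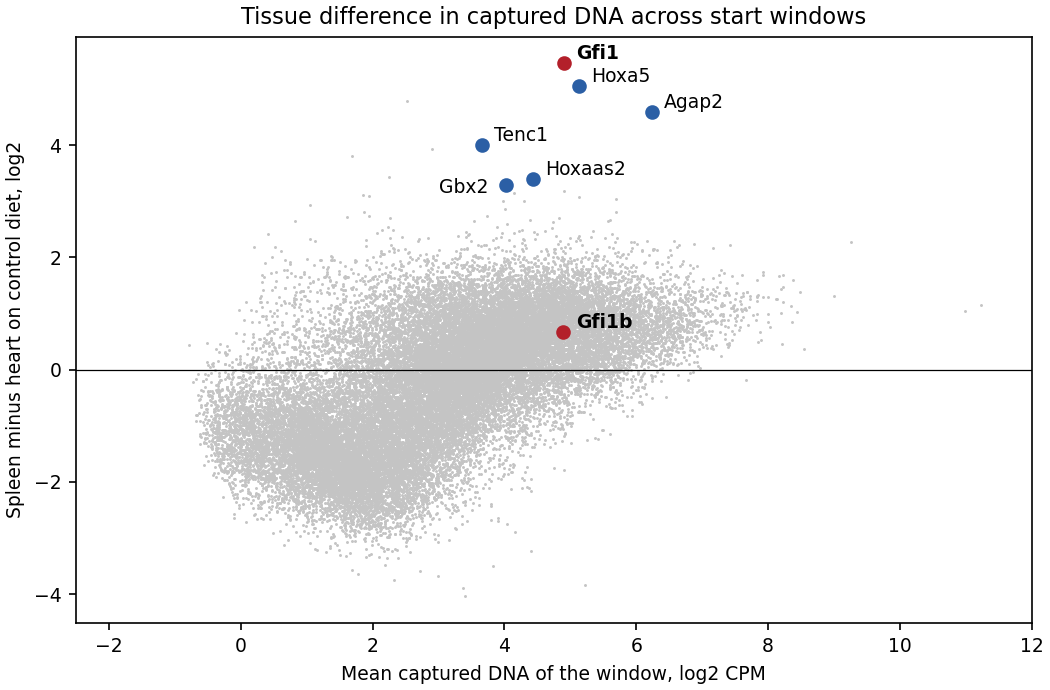
Spleen minus heart log2 fold change on the control diet (vertical axis) against the mean log2 CPM (horizontal axis) for windows tested over both tissues; red marks Gfi1 and Gfi1b, blue the 5 windows ranked next to Gfi1. Gfi1 stands highest at 5.46 and Gfi1b at 0.66 lies within the cloud; 3 very abundant windows, Gm10800, Gm10801 and Gm21738, lie beyond the right edge.

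Gene starts around Gfi1 stood far below it in spleen over heart. Within 1000 kb, 26 of 30 other windows passed the filter, and their spleen minus heart log2 fold changes ran from -2.18 to 1.35, the highest at 1700028K03Rik. Of these, 8 were called higher and 12 lower in spleen, beside 32.7% and 40% of all windows. For the neighbours of both genes, CPM levels are means over the libraries of all diets, and fold changes are for the control diet. Evi5, a Rab-regulating cell cycle gene whose start lies 143.2 kb upstream, had 49.7 ± 3.96 CPM in spleen and 55.5 ± 3.47 CPM in heart (-0.13, edgeR adjusted p = 0.298). Ube2d2b, a ubiquitin-conjugating enzyme 104.4 kb upstream, had 36.9 ± 10.3 CPM in spleen and 13.5 ± 2.25 CPM in heart (1.18). Downstream, the non-coding gene A930041C12Rik at 92.0 kb had 3.14 ± 0.89 CPM in spleen and 9.75 ± 1.06 CPM in heart (-1.21). Glmn, a regulator of ubiquitin ligases, at 127.9 kb had 25.1 ± 4.86 CPM in spleen and 16.4 ± 2.62 CPM in heart (0.53). SDs here and around Gfi1b are over 12 spleen and 11 heart libraries. The nearest gene starts therefore differed in direction, as windows in general did. Gfi1 was chosen as the window highest in spleen over heart, so its place above every neighbour was set by that choice.

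Around Gfi1b, 22 of 24 windows within 1000 kb passed the filter, with values of -1.98 to 1.27, the highest at the mitochondrial ribosome gene Mrps2. Of these, 8 were called higher and 7 lower in spleen, beside 32.7% and 40% of all windows. Tsc1, the growth regulator hamartin, starts 19.3 kb upstream. Over all diets it had 51.1 ± 4.08 CPM in spleen and 53.6 ± 7.19 CPM in heart (-0.12 on the control diet). Gtf3c5, a subunit of a general factor of RNA polymerase III, lies 38.7 kb downstream at 37.0 ± 3.90 CPM in spleen and 35.1 ± 4.47 CPM in heart (0.02). Neither was called. The lipase gene Cel, 58.6 kb downstream, had 0.34 with an adjusted p of 0.339 in edgeR, and Ak8, an adenylate kinase 78.2 kb upstream, had 8.34 ± 2.42 CPM in spleen and 14.7 ± 1.74 CPM in heart (-1.02).

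**Figure D3:**
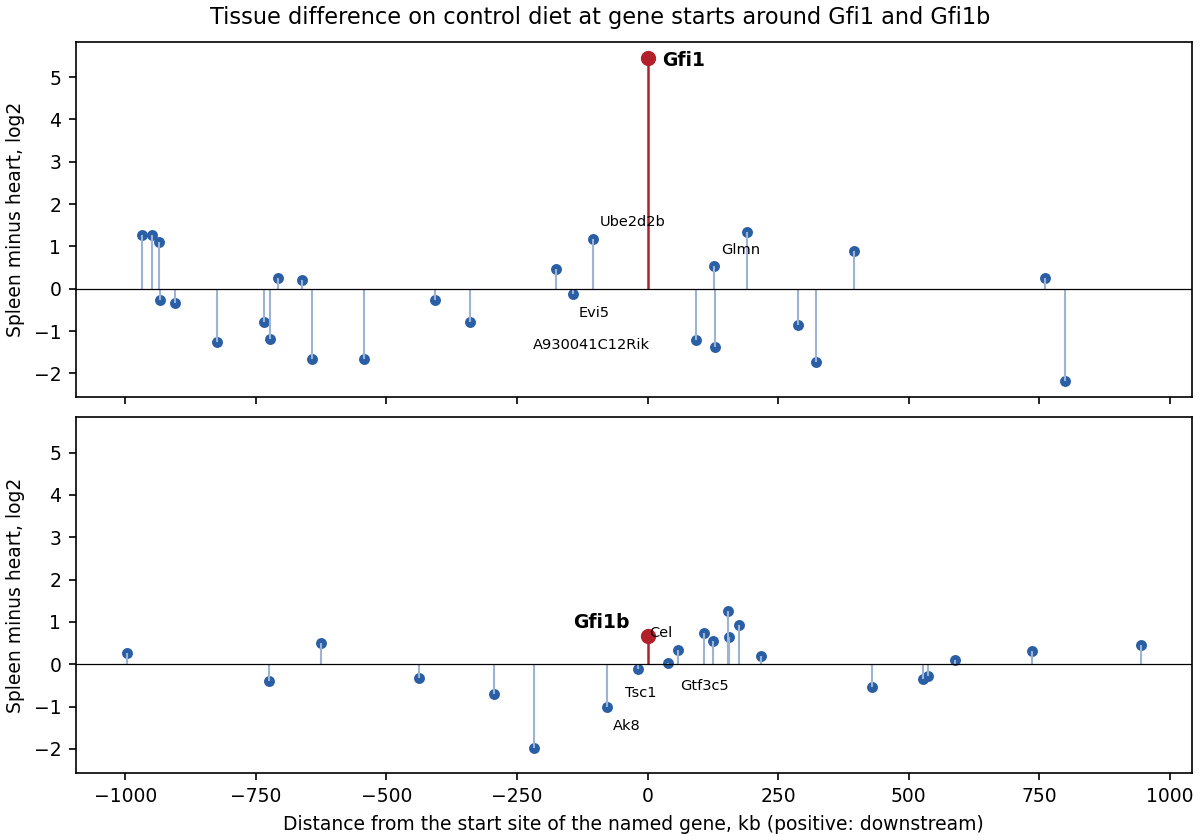
Spleen minus heart log2 fold change on the control diet (vertical axis) at gene start windows within 1000 kb of Gfi1 (upper panel) and Gfi1b (lower panel), by distance from the start in kb (horizontal axis, positive downstream); red marks the member and labels the nearest genes. The Gfi1 line reaches 5.46 while its neighbours stay between -2.18 and 1.35.

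Across the 6 tissue and diet groups, the windows whose pattern was most like that of Gfi1 were partly those already ranked beside it. Likeness was the root mean square distance between centred log2 group means, over 19371 windows. The nearest were Hoxa5 (0.20), Agap2 (0.32), Ccdc94, a splicing factor gene (0.40), and Tenc1 (0.86), against a median distance of 2.70 over all windows. Ccdc94 had 11.99 ± 4.37 CPM in spleen and 0.26 ± 0.22 CPM in heart, where single libraries had 0. The list of Gfi1 was thin, since Tenc1 was already 0.86 away. Gfi1 was chosen as the window highest in spleen over heart, and the distance includes that difference. Few near windows and a large median distance are thus what the choice gives, and the contrast with Gfi1b is no separate result. Gfi1b had many close neighbours: the zinc finger gene Zfp362 (0.016), the sperm protease gene Acr (0.019), the sulphate donor transporter gene Slc35b2 (0.019) and the cytokine receptor gene Il20rb (0.022), against a median of 0.50. Likeness over 6 groups says nothing of shared function.

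Among spleen libraries Gfi1 varied more than windows of its abundance, and Gfi1b less. After removing diet means, the SD of Gfi1 in spleen was 0.39 on the log2 scale, higher than in 99.1% of the 1000 windows nearest in abundance, whose median was 0.17. For Gfi1b it was 0.12, higher than in 9.3% of its own 1000, whose median was 0.18. In heart the SD was 0.50 for Gfi1, against a median of 0.56 at its low abundance, and 0.12 for Gfi1b, against 0.19.

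In spleen 3 libraries stood apart for Gfi1, 1 of each diet. High fibre replicate 1 had 53.3 CPM, acetate replicate 4 had 55.4 CPM and control replicate 1 had 54.7 CPM on the scale within spleen, and the other 9 spleen libraries lay between 25.7 and 40.5 CPM. As CPM outside Gm10800 the same 3 had 109.5 to 120.0 and the other 9 had 59.4 to 90.2. Agap2 and Hoxaas2 were highest in the same 3 libraries: Agap2 had 124.6 to 154.0 CPM there, with the next library at 93.9 CPM, and Hoxaas2 had 28.95 to 37.0 CPM, with the next at 27.6 CPM. Of the 3 libraries, 2 were among the 3 highest for Gfi1b and for Hoxa5, 1 for Tenc1 and 1 for Gbx2. Gfi1b lay between 24.9 and 29.9 CPM in them, within a spleen range of 21.8 to 29.9 CPM.

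Summed marker windows of blood cells were also highest in the same 3 libraries. The share of all windows that were highest in these 3 was not counted. The pattern is thus not shown to be particular to Gfi1 or to blood markers, and the cardiomyocyte sum was not set beside them. The summed CPM of 19 leukocyte marker windows was highest in those 3, at 340.7 to 353.2, with the next library at 314.7. That of 12 erythroid and megakaryocyte windows was 168.9 to 178.4 there, with the next at 159.3. The Gm10800 share of the 3 was 48.2% to 56.2%. Their part in the spread of Gfi1 was not tested. Agreement of Gfi1 with 9 other measures was computed after the data were seen, over the 12 libraries and within the 9. Over the 12, 6 of the 9 Pearson relations passed adjustment by permutation test (adjusted p = 0.00072 to 0.0424). By Spearman 2 passed, those with Agap2 and with the leukocyte sum (adjusted p = 0.0383 each by permutation test). The 12 include the 3 libraries that Gfi1 itself set apart, so these passes cannot be separated from that split and lend it no support. No pooled r is given because the libraries fall into separate clusters. The 9 lie on one side of a gap in Gfi1 itself, which narrows its range. Within them, Gfi1 and Agap2 had a Pearson r of 0.73 (exact permutation p = 0.0257, adjusted 0.231) and a Spearman rho of 0.42 (exact p = 0.270, adjusted 0.578), and r dropped to 0.12 without the 2 libraries farthest from the median of Gfi1. Gfi1 and Gfi1b had an r of 0.57 (exact permutation p = 0.0962, adjusted 0.285), a rho of 0.50 (exact p = 0.178, adjusted 0.578) and an r of 0.30 without those 2. Within the 9, 0 of the 9 relations passed adjustment, which does not show that Gfi1 and these measures are unrelated.

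**Figure D4:**
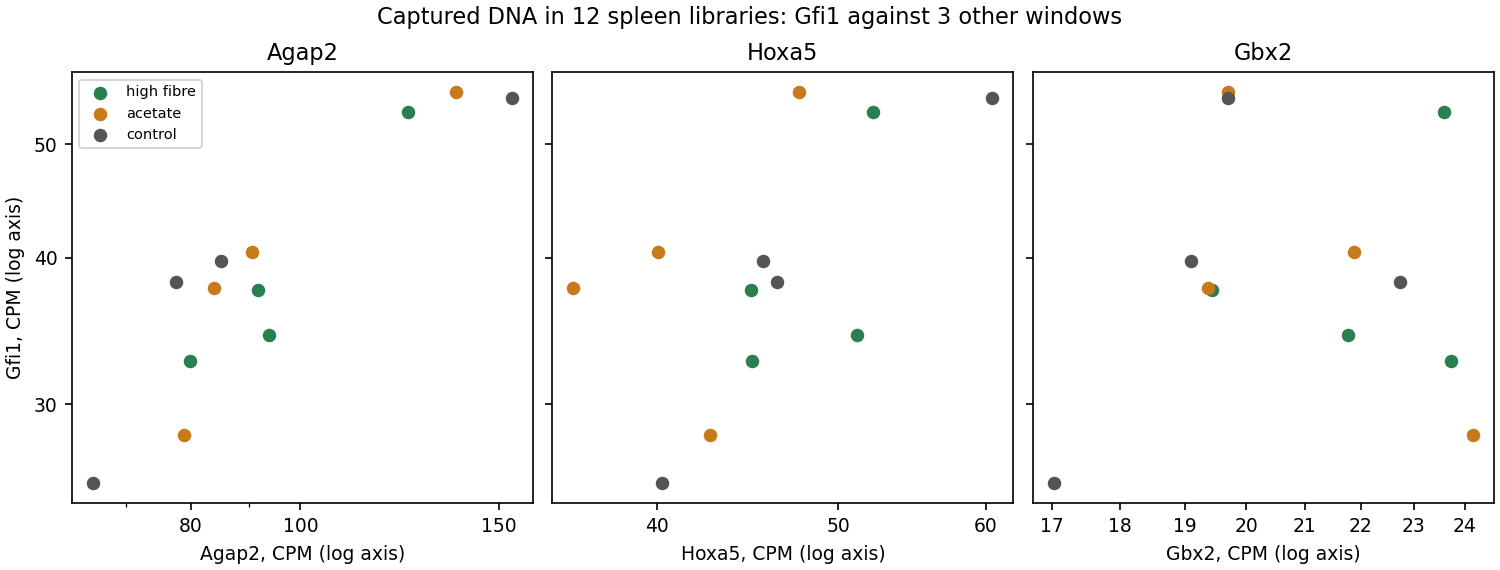
Gfi1 (vertical axis) against Agap2, Hoxa5 and Gbx2 (horizontal axes) in 12 spleen libraries, in CPM scaled within spleen on log axes, coloured by diet. The 3 libraries at 53.3 to 55.4 CPM of Gfi1, 1 of each colour, are also the 3 highest for Agap2, and the split is not seen along Hoxa5 or Gbx2.

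The diets were then compared within each tissue, which asks whether fibre or acetate went with other capture at the 2 windows. In spleen, no diet difference at Gfi1 passed the test. On the scale within spleen Gfi1 had 39.5 ± 9.42 CPM on high fibre, 40.5 ± 11.3 CPM on acetate and 39.6 ± 11.9 CPM on control (SD, n = 4 each). The log2 fold change was 0.01 for high fibre against control (2 SE either side, -0.37 to 0.39), 0.05 for acetate against control (-0.33 to 0.44) and -0.04 for high fibre against acetate (-0.43 to 0.34). The 3 groups covered nearly the same range, each with 1 of the high libraries. Without high fibre replicate 1 the difference between high fibre and control was -0.18, and without control replicate 1 it was 0.21, neither called.

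Gfi1b in spleen was steadier, and its diet differences did not pass either. It had 24.9 ± 1.11 CPM on high fibre, 25.4 ± 0.70 CPM on acetate and 25.5 ± 3.38 CPM on control (SD, n = 4 each). The log2 fold changes were -0.03 (-0.26 to 0.20) for high fibre against control, 0.00 (-0.23 to 0.23) for acetate against control and -0.03 (-0.27 to 0.21) for high fibre against acetate. The edgeR adjusted p was 1.00 for each of these 6 tests, and edgeR called 0 of 24871 windows in each spleen comparison (background 0%), with 502 at an unadjusted p under 0.05 for high fibre against control, 872 for acetate against control and 823 for high fibre against acetate.

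In heart, where Gfi1 had 6 to 20 reads a library, no diet difference passed the test and the intervals were wide. It had 2.11 ± 0.98 CPM on high fibre, 2.187 ± 0.77 CPM on acetate and 1.61 ± 0.43 CPM on control (SD, n = 4, 3 and 4, scaled within heart). The log2 fold change was 0.34 (SE 0.36, edgeR adjusted p = 0.493) for high fibre against control, and 2 SE either side ran from -0.39 to 1.06. It was 0.40 (SE 0.40, adjusted p = 1.00) for acetate against control and -0.06 (SE 0.38, adjusted p = 0.924) for high fibre against acetate. The groups overlapped in all 3 comparisons. Its direction on high fibre also turned with the processing, to -0.55 with cyclic loess, and it passed at 0.94 (adjusted p = 0.0414) with library totals.

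At Gfi1b in heart, high fibre libraries lay below control libraries on the main scale, without a call. High fibre libraries had 31.5, 32.8, 30.4 and 26.8 CPM, against 36.5, 34.4, 36.7 and 35.1 CPM in control libraries. Acetate libraries had 40.8, 34.5 and 32.6 CPM. Every high fibre library was thus lower than every control library, as it was for 17.1% of the 33562 heart windows tested; a further 16.6% lay wholly higher. The log2 fold change was -0.23 (SE 0.11, edgeR adjusted p = 0.123). The exact permutation test of the CPM gave p = 0.0286, the smallest value that 4 against 4 libraries allow, and 0.343 after adjustment over 12 such tests of the 2 genes. edgeR called 26.2% of heart windows in this comparison, 12.6% higher and 13.6% lower on high fibre.

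The separation at Gfi1b in heart was not seen on another scale. As CPM outside Gm10800, high fibre libraries had 50.2, 53.1, 48.6 and 43.9, against 49.0, 49.8, 49.4 and 50.5 in control libraries, and the groups overlapped. With library totals the fold change turned to 0.46 (edgeR adjusted p = 0.0074), a scale that moved the median of all heart windows to 0.69. With cyclic loess it was -0.01, and with 1 surrogate variable -0.09. The Gm10800 share, 19.05% on high fibre and 42.3% on control, moved with the same libraries, and its part in the difference was not tested. Acetate against control gave 0.00 (SE 0.13, adjusted p = 1.00), and high fibre against acetate -0.23 (SE 0.12, adjusted p = 0.220). edgeR called 0% of windows for acetate against control, with 840 at an unadjusted p under 0.05, and 1.38% for high fibre against acetate.

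No difference between the tissues in a diet effect passed the test. For high fibre, the spleen effect minus the heart effect was -0.32 (SE 0.41, edgeR adjusted p = 0.715) at Gfi1 and 0.20 (SE 0.18, adjusted p = 0.580) at Gfi1b, where 0.0559% of 33982 windows were called. For acetate it was -0.38 (SE 0.45, adjusted p = 1.00) at Gfi1 and -0.04 (SE 0.19, adjusted p = 1.00) at Gfi1b. In the acetate test 0% of windows were called, with 1553 at an unadjusted p under 0.05.

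**Figure D5:**
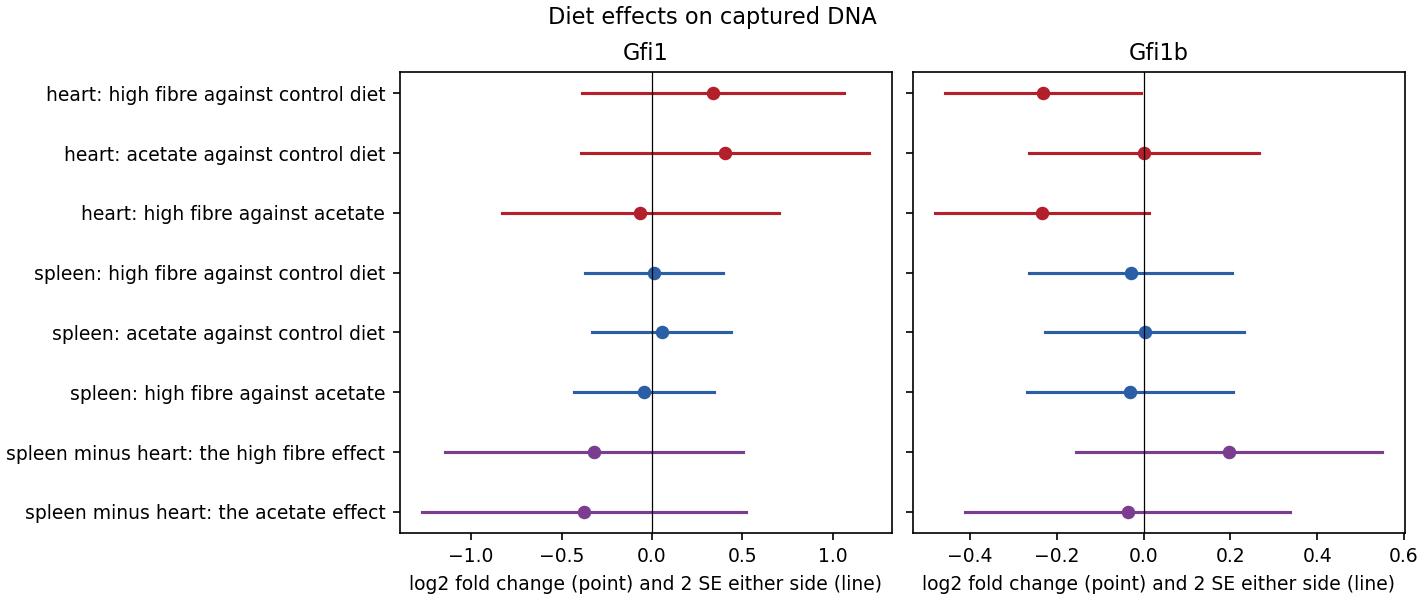
Log2 fold change of each diet comparison (points) with 2 SE either side (lines) for Gfi1 (left) and Gfi1b (right); red is heart, blue spleen and purple the spleen effect minus the heart effect. The panels have different horizontal ranges. Lines at Gfi1 are longer in heart, at -0.39 to 1.06 for high fibre against control, than in spleen, at -0.37 to 0.39. The one that lies wholly below 0 is Gfi1b in heart, high fibre against control (-0.46 to -0.01). Its edgeR p was 0.051 before adjustment and 0.123 after, so a line clear of 0 does not mark a passed test.

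The genes that work with Gfi1 and Gfi1b were read from lists. Of 20 genes for their co-repressors and partners, 18 were tested between the tissues, and 7 were higher and 5 lower in control spleen than in control heart, beside 32.7% and 40% of all windows. Zbtb17, which encodes the Myc partner Miz-1 that Gfi1 also binds, had 198.9 ± 60.5 CPM in spleen and 71.7 ± 8.89 CPM in heart (log2 fold change 1.46; SD, n = 4 each here and in the next paragraphs). Pias3, an inhibitor of STAT3, had 94.5 ± 12.1 CPM in spleen and 40.04 ± 3.24 CPM in heart (1.23). The CoREST gene Rcor2 had 49.6 ± 9.69 CPM in spleen and 21.2 ± 0.56 CPM in heart (1.21), and was not called with library totals at 0.29. Lower in spleen was Kdm1a, which encodes LSD1 itself, with 35.7 ± 5.64 CPM in spleen and 47.3 ± 3.49 CPM in heart (-0.40), and so were the LSD1 complex gene Phf21a (-1.23) and the corepressor gene Cbfa2t2 (-1.30). Windows in general also lay on both sides, so this split is not read as a result about the partners. The list median was 0.16 beside -0.19 over all windows. With library totals the median over all windows was -1.03 and the counts were 2 higher and 9 lower. The shares of all windows called on that scale are not given, here or for the other lists and markers. Those counts therefore show only that the directions rest on the scale.

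Of the other SNAG domain genes, 8 of 9 were tested, and 3 were higher and 1 lower in spleen, beside 32.7% and 40% of all windows. Snai1, the repressor Snail, had 36.5 ± 16.7 CPM in control spleen and 10.7 ± 1.68 CPM in control heart (log2 fold change 1.74). Insm2 was at 0.37 and Ovol1 at 0.39, and the neuroendocrine factor gene Insm1, at -0.99, had 1.399 ± 0.50 CPM in spleen and 3.14 ± 0.99 CPM in heart. Insm2 and Ovol1 turned to -0.52 and -0.50 with library totals, Ovol1 to -0.02 and Insm1 to 0.34 with cyclic loess. The list median was -0.08, and library totals gave 1 higher and 7 lower.

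Among 20 transcription factor genes that act upstream of or beside the pair in blood, 9 were higher and 9 lower in spleen, with a median of -0.09, beside 32.7% and 40% of all windows. Fli1, an ETS factor of blood and endothelium, had 26.1 ± 7.63 CPM in control spleen and 5.81 ± 0.90 CPM in control heart (log2 fold change 2.11). Runx1, needed for blood stem cells, had 84.5 ± 19.0 CPM in spleen and 24.7 ± 1.04 CPM in heart (1.76). Gata2, a stem and progenitor factor, had 53.7 ± 10.4 CPM in spleen and 16.996 ± 1.24 CPM in heart (1.64). Lower in spleen were Cebpa of the granulocyte line, with 2.10 ± 0.38 CPM in spleen and 9.60 ± 2.06 CPM in heart (-2.02), the stem cell cofactor gene Lmo2 (-1.61) and the progenitor factor gene Myb (-1.37), which was not called with cyclic loess at -0.60. Calls in both directions are also what all windows show, so the split is not read as a result about blood regulators. Library totals gave 6 higher and 11 lower.

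Of 26 genes described as bound or repressed by Gfi1 or Gfi1b, 25 were tested, and 11 were higher and 10 lower in spleen, with a median of 0.08; of all windows 32.7% were higher and 40% lower. Bcl2l1, a survival gene, had 20.9 ± 7.24 CPM in control spleen and 6.62 ± 1.29 CPM in control heart (log2 fold change 1.60). Egr1, an early response factor, had 47.4 ± 18.1 CPM in spleen and 15.6 ± 2.36 CPM in heart (1.57). The inhibitors of differentiation Id1 and Id2 were at -2.497 and -1.72 and the ETS gene Ets1 at -1.20, and Id1 was not called with cyclic loess at -1.38. Library totals gave 3 higher and 14 lower.

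In heart on high fibre, 7 of 17 tested co-repressor and partner genes were lower and 0 higher than on control, beside 13.6% and 12.6% of all windows, with a list median of -0.31 and a median of all windows of 0.02. Ehmt2, a histone methyltransferase that works with Gfi1, had 49.1 ± 4.62 CPM on high fibre and 95.3 ± 7.64 CPM on control (log2 fold change -0.95, edgeR adjusted p = 0.00274). The arginine methyltransferase gene Prmt1 had 11.1 ± 2.80 CPM on high fibre and 21.6 ± 2.61 CPM on control (-0.96). Pias3 had 40.3 ± 4.39 CPM on high fibre and 60.5 ± 4.85 CPM on control (-0.58). With library totals 9 genes of the list were higher and 0 lower, and these 3, at -0.26, -0.27 and 0.12, were not called, so the count rests on the scale. Library totals called most heart windows and raised their median. Counts on that scale, here and in the next paragraph, are therefore not read as results about the lists. With 1 surrogate variable 1 gene of the list was called lower, Ehmt2 (-0.55).

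Of the SNAG genes, Snai2 (log2 fold change 0.83) and Insm1 (0.95) were higher and Snai1 (-0.67) lower on high fibre in heart, where 12.6% of all windows were higher and 13.6% lower. Of the blood factor genes 1 was higher, Tal1, a master factor of blood formation, with 9.27 ± 1.55 CPM on high fibre and 5.32 ± 0.96 CPM on control (0.77). There 6 of 20 were lower, among them Zfpm1, the cofactor of GATA1 (-0.66), Spi1, which encodes PU.1 (-0.55), and Tcf3, a partner of Tal1 (-0.51). Of the target genes 1 of 25 was higher, Ets1 (0.51), and 6 were lower, among them Cebpe of late granulocytes (-0.78), Bax of cell death (-0.56) and the receptor gene Csf1r (-0.46). With library totals the lower genes named here turned positive, at 0.02 to 0.24, except Cebpe at -0.08, and no gene of these lists was called lower. With 1 surrogate variable none of the genes of these 3 lists was called, and Insm1 turned to -0.42. Of 20 leukocyte marker windows 11 were lower and 2 higher in the same comparison, beside the 13.6% and 12.6% of all windows, turning to 0 lower and 7 higher with library totals; their summed level was 463.2 to 546.3 CPM on high fibre and 608.2 to 702.7 CPM on control, and their part was not tested. On the main scale 6 of 12 erythroid and megakaryocyte marker windows were also lower and 1 higher. Of 15 cardiomyocyte marker windows 3 were lower and 1 higher, beside the same shares of all windows. Lower capture on high fibre was thus not particular to leukocyte markers. Spi1 and Csf1r are also in the leukocyte list.

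Against acetate, high fibre heart had 2 co-repressor genes lower, Ehmt2 (-0.87) and Prmt1 (-0.96), and 2 blood factor genes lower, Zfpm1 (-0.65) and Cbfb, the partner subunit of RUNX1 (-0.87), beside 1.19% of windows called lower. All 4 lost their calls with RLE size factors, at edgeR adjusted p-values of 0.0562 to 0.0563. In the other diet comparisons, in spleen and for acetate against control in heart, 0 genes of these lists passed the edgeR threshold, as did 0% of windows. The smallest unadjusted edgeR p-values among the genes named from these lists were 0.0237 at Klf1, the red cell factor, for acetate against control in heart (-0.41), and 0.0362 at Cebpa for high fibre against control in spleen (0.75).

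Marker genes were read for the cells each tissue could hold, as captured DNA and not as expression. Summed over 15 cardiomyocyte marker windows, spleen had 528.0 to 728.5 CPM and heart 276.9 to 337.6 CPM, on the scale over both tissues. Of these 15, 9 were called higher and 6 lower in control spleen (median 0.65), and of 20 leukocyte markers 3 were higher and 11 lower (median -0.56), beside 32.7% and 40% of all windows. With library totals the counts were 2 higher and 7 lower, and 2 higher and 17 lower. The muscle genes Mybpc3 (2.37) and Myh6 (1.71) were among the higher cardiomyocyte ones, and the cardiac factor genes Tbx20 (-2.67) and Gata4 (-0.89) and the muscle gene Csrp3 (-1.38) among the lower. The 3 higher leukocyte ones were the T cell genes Zap70 (1.397) and Cd8a (0.97) and the tetraspanin gene Cd37 (1.33), and Cd8a was not called with library totals at 0.06. The B cell gene Ms4a1 (-1.88) and Cd52 (-2.29) were among the lower leukocyte ones. Erythroid and megakaryocyte markers, of the lineages in which Gfi1b acts, had 5 higher and 2 lower of 13, a higher share close to that of all windows (0 higher and 8 lower with library totals), and summed to 191.6 to 276.7 CPM in spleen and 140.0 to 190.0 CPM in heart. No marker window was at 0 in all libraries.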

How the data were processed

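MethylMiner-captured DNA of 23 libraries was counted in 3 kb gene start windows by the authors, who deposited raw counts per window; bcl2fastq 2.19.1.403, BWA 0.7.10, featureCounts 1.5.1, edgeR 3.16.5 and build GRCm38 are named in the submitters' processing notes. Window centring and the handling of duplicates, multiple alignments and overlapping windows are not given in the sources used here, and reads over overlapping genes could be split. Groups came from the labels. In R 4.3.3, edgeR 4.0.16 (TMM, filterByExpr with a minimum count of 10, prior count 2, quasi-likelihood test, Benjamini-Hochberg at 5% over all windows tested) compared diets within each tissue in 1 fit of 3 diets, and tissues and their diet effects in 1 fit of 6 groups. The steps were tested on simulated data. Alternatives used RLE factors, library totals, cyclic loess with limma 3.58.1, DESeq2 1.42.0, no filter, a replicate block, 1 surrogate variable (sva 3.50.0), each library left out, and CPM outside Gm10800. Replicate pairs differed by 1.54 to 22.2 in chi-square per degree of freedom over 33 pairs, so no library counted as a duplicate. Levels are CPM scaled over both tissues for tissue comparisons and within a tissue for diets. Likeness added 0.25 to the CPM before logs.

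Sequences and positions came from RefSeq (GRCm38.p6). Named beside the pair were the 5 windows ranked next to Gfi1 above the median abundance, the 4 most alike in centred group means, the 2 nearest genes with a window on each side, and up to 3 genes per list and direction with the smallest p (the 1 with the smallest p where none passed); predicted and duplicated symbols were skipped in the ranking and likeness rules. Marker genes going against a tissue label were also named. Both genes and all lists were chosen with earlier results of these data known.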

Additional observations from a re-analysis of the deposited data

How the results depend on the processing

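The tissue ratio of Gfi1 kept its direction under every alternative run, at 3.78 on high fibre, 4.40 on acetate and 4.85 on control with library totals; leaving out 1 library gave 5.13 to 5.58, 5.10 to 5.68 and 5.55 to 5.98. That of Gfi1b turned to -0.73, -0.30 and -0.25 with library totals and was 0.14, 0.16 and 0.14 as CPM outside Gm10800, with 0.81 to 0.90, 0.55 to 0.72 and 0.56 to 0.76 on leaving out 1 library. In heart, high fibre against control, Gfi1 was 0.94 with library totals and -0.55 with cyclic loess (0.16 to 0.58 on leaving out 1 library), and Gfi1b 0.46 with library totals (-0.27 to -0.17). High fibre against acetate turned with library totals to 0.34 at Gfi1 (-0.24 to 0.23 on leaving out 1 library) and 0.23 at Gfi1b (-0.30 to -0.15). Acetate against control at Gfi1b in heart was -0.00055 without the filter, -0.029 with the replicate block and -0.0030 with 1 surrogate variable (-0.088 to 0.068 on leaving out 1 library); at Gfi1 that range was 0.11 to 0.56. In spleen, Gfi1 on high fibre against control was -0.00050 with DESeq2 and -0.0099 without the filter (-0.18 to 0.21), and Gfi1b on acetate against control -0.049 without the filter (-0.073 to 0.082). The other spleen ranges were -0.15 to 0.25 for acetate against control and -0.23 to 0.16 for high fibre against acetate at Gfi1, and -0.10 to 0.053 for high fibre against control and -0.06 to -0.0014 for high fibre against acetate at Gfi1b. The tissue difference in the high fibre effect at Gfi1b was -0.47 with library totals and -0.049 with cyclic loess (0.11 to 0.31), and in the acetate effect 0.014 with cyclic loess (-0.12 to 0.074); at Gfi1 the ranges were -0.56 to -0.10 for high fibre and -0.62 to -0.09 for acetate. The causes were not tested.

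Windows called for high fibre against control in heart numbered 8786, 24626 with library totals, 4421 with cyclic loess, 224 with 1 surrogate variable, and 2495 (without control replicate 1) to 7155 on leaving out 1 library. High fibre against acetate in heart called 462, 0 with RLE factors or cyclic loess, 1882 with library totals, 2516 with DESeq2, 1256 without the filter, 2284 with the replicate block, 19 with 1 surrogate variable, and 0 (without high fibre replicate 1) to 4536 (without acetate replicate 3). Acetate against control in heart called 1 with the block, 17 with 1 surrogate variable and 0 to 684 (without acetate replicate 1). In spleen, high fibre against control called 1 with 1 surrogate variable (0 to 0); acetate against control 1 with DESeq2 or the block, 2 without the filter and 27 with 1 surrogate variable (0 to 1); high fibre against acetate 1 with library totals or without the filter and 7 with 1 surrogate variable (0 to 3). The tissue difference in the high fibre effect called 19, 6388 with library totals, 45 with cyclic loess, 110 with DESeq2, 979 with the block and 0 to 602 (without spleen control replicate 1); that in the acetate effect called 0 to 0, and spleen against heart 23034 to 24469.

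Libraries with the same replicate number deviated together (a correlation over 0.1) in 5 of 10 heart pairs and 5 of 12 spleen pairs, beside 6 of 30 and 5 of 36 pairs with different numbers. Spleen and heart libraries with the same title number did so in 4 of 11 pairs, beside 28 of 121. Not every same-numbered pair passed, and the labels do not say whether a number marks 1 mouse, so the main fits did not use the numbers as pairs. Pairing is not excluded by this, since same-numbered pairs passed more often than the others. The number of windows called in some comparisons changed with the replicate block, as given above. With the replicate block, high fibre against control in heart was 0.32 at Gfi1 and -0.23 at Gfi1b, neither called. Reads at Gfi1 in heart, 6 to 20 per library, limit what a diet comparison there can show.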
